A study of Mus musculus with 8 samples.

Results

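Group 2 innate lymphoid cells (ILC2s) and CD8 T cells labelled as having shared a culture were compared gene by gene after they were sorted apart. The comparison takes every gene symbol listed in the count tables of both cell types, 16226 of the 19805 symbols found in either table, and sets 2 ILC2 libraries against 2 CD8 T cell libraries. Of these symbols, 15265 had enough reads to be tested and 961 did not. A further 2163 symbols were listed for ILC2s only and 1416 for CD8 T cells only, and they are described apart, without a fold change.

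The cells were primary cells of wild-type (WT) mice, the ILC2s from lung and the CD8 T cells from spleen, and the samples compared here carry the treatment label co-cultured. By the labels, CD8 T cells and ILC2s had been kept together for 3 days at a ratio of 5:1 before flow cytometric sorting and bulk RNA sequencing. The other groups of the series are the same cell types labelled untreated and cultured on their own, again with 2 libraries each, and they enter only where culture conditions are compared. No age, sex, strain or antigen receptor transgene is given for the mice, and the labels do not tell whether replicate libraries stem from different cultures or mice. A p-value here therefore weighs a difference against the spread of these libraries alone, and that spread may be technical. The series asks whether ILC2s take up antigen and present it to CD8 T cells. Because the ILC2s came from lung and the CD8 T cells from spleen, cell type and tissue of origin cannot be told apart.

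Total counts were 48471801 and 48072595 for the ILC2 libraries and 66170866 and 67076905 for the CD8 T cell libraries, and levels are given as CPM, the read count divided by the library total and scaled to counts per 1e6. Replicate libraries correlated at a Pearson's r of 0.9959 to 0.998 across genes and differed by more than sampling noise. The cultures labelled alone need care. ILC2s labelled alone held 249 and 258 CPM of Cd8a, against 6.09 and 6.76 CPM in ILC2s labelled co-cultured with CD8 T cells, and they also held 1068 and 1226 CPM of the collagen gene Col1a1 against 0.6395 and 0.312 CPM. Whether the labels of the ILC2 groups were exchanged was not tested, and if they were, every ILC2 value and every comparison of cultures below belongs to the other group. The groups are therefore called by their labels, and ILC2s and CD8 T cells below are the libraries labelled co-cultured unless another group is named. In bulk RNA a lower level can come from fewer cells that express a gene or from less RNA in each cell, and these cannot be told apart.

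ILC2s carry no rearranged antigen receptor. They respond to tissue alarm signals such as interleukin-33 and make interleukin-5 and interleukin-13, and their identity depends on the transcription factor GATA3. CD8 T cells recognise peptides on MHC class I through the T cell receptor and the CD8 coreceptor, and kill with perforin and granzymes. Both are lymphocytes that share receptors of the common gamma chain family, chemokine receptors and much of their signalling machinery.

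The genes that mark each cell type stood as the labels say. Gata3 stood at 1317 and 1237 CPM in the ILC2 libraries and 77.6 and 86.3 CPM in the CD8 T cell libraries (log2 difference 4.18, SE 0.10, edgeR adjusted p = 2.8e-14). Il1rl1, which encodes the interleukin-33 receptor ST2, stood at 2399 and 2084 CPM in the ILC2 libraries and 0.695 and 0.388 CPM in the CD8 T cell libraries (log2 difference 12.23, SE 0.18, edgeR adjusted p = 5.0e-16). In the other direction, Cd8a stood at 966 and 937 CPM in the CD8 T cell libraries and 6.09 and 6.76 CPM in the ILC2 libraries (log2 difference -6.998, SE 0.11, edgeR adjusted p = 9.7e-16), and Gzmb, the gene of granzyme B, at 4320.4 and 4497 CPM in the CD8 T cell libraries and 95.2 and 117 CPM in the ILC2 libraries (log2 difference -5.16, SE 0.11, edgeR adjusted p = 5.9e-15). Replicate libraries lay close together for these markers beside the gap between the cell types. Cd8a lies on chromosome 6, 71373427 to 71379173, Il1rl1 on chromosome 1, 40429570 to 40465415 and Gzmb on chromosome 14, 56258838 to 56262260 of GRCm38, and all are protein-coding genes.

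Across the genome the cell types differed widely. Of the 15265 genes tested, 10508 were called at an edgeR adjusted p under 0.05, 68.8% of them all. Of those, 5219 (34.2%) were higher in ILC2s and 5289 (34.6%) were higher in CD8 T cells. A call at least 2-fold in size was made for 5687 genes (37.3%), 2881 higher in ILC2s (18.9%) and 2806 higher in CD8 T cells (18.4%). Of the largest differences, 303 genes were at least 16-fold higher in ILC2s and 200 in CD8 T cells, and 101 against 28 were at least 64-fold higher. What part reads from the other cell type have in these numbers was not tested. The median log2 difference over all genes tested was -0.000938, and this is the value against which the gene lists below are set. Counts called in a list are to be read beside the 34.2% and 34.6% over all genes tested. The split by direction depends on the scaling: with the library total alone, 39.4% of called genes were higher in ILC2s, against 49.7% here, and the median over all genes moved to -0.21. All differences below are relative to the TMM scaling.

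**Figure D1:**
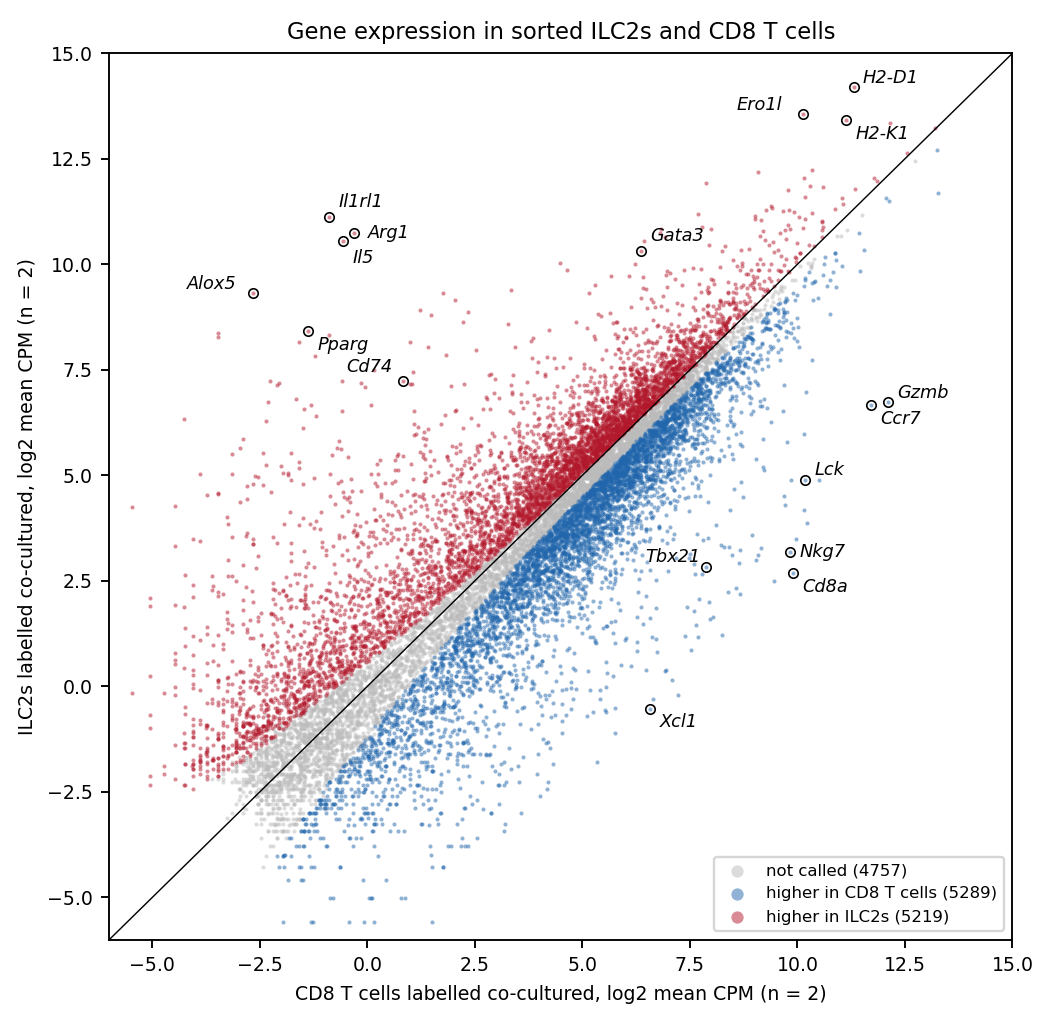
Mean level of each tested gene in CD8 T cells (x axis, log2 mean CPM) and in ILC2s (y axis, log2 mean CPM), each over 2 libraries labelled co-cultured. Red points are the 5219 genes higher in ILC2s, blue points the 5289 genes higher in CD8 T cells and grey points the genes not called. The line marks equal levels, and Il1rl1, Il5, Arg1 and Alox5 lie farthest above it among the circled genes.

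Measured per kilobase of exon, so that genes can be compared with each other, MHC class I genes were the most abundant in ILC2s. H2-D1 reached 7253 CPM per kb in ILC2s and 981 in CD8 T cells, B2m 5603 and 1517, and H2-K1 3749 and 759. After the elongation factor gene Eef1a1, Ero1l ranked 5 in ILC2s. It encodes an oxidase of the endoplasmic reticulum that helps form disulphide bonds, and stood at 2271 CPM per kb in ILC2s and 212 in CD8 T cells. In CD8 T cells, Gzmb stood at 3070 CPM per kb, against 74.0 in ILC2s.

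The largest differences are ranked here only over genes whose log2 CPM averaged 4 or more and that had 10 or more reads in each library. Genes under that mean level, such as Alox5, Pparg and Xcl1, are given with their lists below. The largest difference was that of Il1rl1 itself. After it came Il5, the gene of interleukin-5, the growth factor of eosinophils, at 1495 and 1492 CPM in the ILC2 libraries and 0.665 and 0.686 CPM in the CD8 T cell libraries (log2 difference 11.32, SE 0.13, edgeR adjusted p = 4.4e-17), and Arg1, which encodes the arginine-degrading enzyme arginase 1, at 1647 and 1785 CPM in the ILC2 libraries and 0.741 and 0.865 CPM in the CD8 T cell libraries (log2 difference 11.27, SE 0.14, edgeR adjusted p = 4.4e-17). The interleukin-1 decoy receptor gene Il1r2 followed (7.91, SE 0.13), then Dkk3 (7.76, SE 0.13), a member of the Dickkopf family of secreted proteins. Pcsk1, which encodes a prohormone convertase, stood at 458 and 427 CPM in ILC2s and 3.39 and 2.22 CPM in CD8 T cells (7.52, SE 0.17). The list closed with Epas1 (7.36, SE 0.13), the gene of the hypoxia-inducible factor HIF-2 alpha, the ubiquitin ligase gene Rnf128 (7.35, SE 0.13), Myadm (6.84, SE 0.14) and the leukotriene B4 receptor gene Ltb4r1 (6.72, SE 0.12). For each of these genes both ILC2 libraries lay above both CD8 T cell libraries by more than the spread within either group. That gap follows from ranking by the size of the difference in the same libraries.

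Under the same limits, the largest differences towards CD8 T cells were smaller on the log2 scale. Among genes of at least 100 CPM that were higher in CD8 T cells, the lowest share in ILC2s was 0.573% of the CD8 level. The part of reads from the other cell type in this was not tested. After Cd8a came the chemokine gene Ccl4, at 300.1 and 311 CPM in the CD8 T cell libraries and 1.67 and 2.95 CPM in the ILC2 libraries (log2 difference -6.83, SE 0.18, edgeR adjusted p = 5.8e-14), and Cd8b1, the beta chain of the coreceptor (-6.76, SE 0.18). Ccl3 (-6.46, SE 0.16), the granule membrane protein gene Nkg7 (-6.45, SE 0.21) and Klrc1 (-6.31, SE 0.14), which encodes the inhibitory receptor NKG2A, came next. Nrn1, the gene of the surface protein neuritin, stood at 405 and 403 CPM in the CD8 T cell libraries and 4.21 and 4.85 CPM in the ILC2 libraries (-6.27, SE 0.12). Ms4a4b (-6.25, SE 0.11), Klrd1 (-6.19, SE 0.16), the partner of NKG2A, and the adhesion receptor gene Crtam (-6.16, SE 0.13) completed the 10.

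The receptors through which ILC2s sense their surroundings were higher in ILC2s for 21 of 24 tested members, with 1 higher in CD8 T cells, 2 not called and a median log2 difference of 2.75. Nmur1, the neuromedin U receptor, stood at 93.4 and 97.1 CPM in the ILC2 libraries and 0.453 and 0.268 CPM in the CD8 T cell libraries (log2 difference 8.25, SE 0.18), and Cysltr1, the cysteinyl leukotriene receptor, at 99.95 and 83.96 CPM in the ILC2 libraries and 0.6801 and 0.656 CPM in the CD8 T cell libraries (7.31, SE 0.17). Ramp3, an accessory protein of calcitonin family receptors, stood at 601 and 741 CPM against 9.94 and 10.3 CPM (6.26, SE 0.13), and Vipr2, a receptor of vasoactive intestinal peptide, at 66.1 and 64.99 CPM against 2.83 and 2.18 CPM (4.92, SE 0.15). Receptors that both cell types used differed less: Il2ra stood at 863 and 784 CPM in the ILC2 libraries and 635 and 651 CPM in the CD8 T cell libraries (0.57, SE 0.09), and Il7r at 448 and 385 CPM against 205 and 205 CPM (1.24, SE 0.10). The prostaglandin receptor gene Ptger4 was not called (log2 difference -0.21, SE 0.17). The interleukin-25 receptor gene Il17rb, at 104 and 101 CPM, and the lectin-like receptor gene Klrg1, at 246 and 273 CPM, were listed for ILC2s only.

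Il1rl1 lies within the interleukin-1 receptor cluster of chromosome 1 (40074079 to 40551705, GRCm38), and all 6 genes of that cluster were higher in ILC2s. This cluster and those of the chemokine receptors and cytokines below were chosen after their values had been seen. In order along the chromosome the log2 differences were 7.91 for Il1r2, 1.79 for Il1r1, 1.86 for Il1rl2, 12.23 for Il1rl1, 2.06 for the interleukin-18 receptor gene Il18r1 and 3.65 for its partner Il18rap. The neighbours Il1r1 and Il1rl2 stayed at a mean of 0.477 and 1.09 CPM in ILC2s. The call of Il1r1 ended without CD8 co-cultured replicate 1 (edgeR adjusted p = 0.152), without ILC2 co-cultured replicate 2 (0.0513) and with DESeq2 (0.0674).

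As markers of either side, Il1rl1 and Gzmb are shown with their promoters, the stretch from 250 bases before to 50 bases after the start in RefSeq (GRCm38.p6). Capitals mark AGATAA or TGATAA (the GATA motif) in Il1rl1, at chr1:40429320-40429619 on the plus strand, and TGTGGT or TGCGGT (the RUNX motif) in Gzmb, at chr14:56262285-56262584 on the minus strand, in either orientation.
Il1rl1: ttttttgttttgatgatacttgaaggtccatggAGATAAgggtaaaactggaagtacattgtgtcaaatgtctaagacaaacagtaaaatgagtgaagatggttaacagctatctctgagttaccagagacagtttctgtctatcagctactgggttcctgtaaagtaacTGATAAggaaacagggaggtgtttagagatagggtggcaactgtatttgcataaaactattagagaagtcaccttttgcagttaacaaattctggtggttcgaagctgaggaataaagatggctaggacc
Gzmb: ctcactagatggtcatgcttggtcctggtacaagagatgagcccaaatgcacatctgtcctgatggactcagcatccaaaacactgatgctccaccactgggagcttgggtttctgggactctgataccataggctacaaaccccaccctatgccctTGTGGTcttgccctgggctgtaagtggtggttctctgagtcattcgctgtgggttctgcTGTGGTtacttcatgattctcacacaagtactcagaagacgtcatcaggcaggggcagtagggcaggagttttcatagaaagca
Each window held 2 matches. The motifs do not overlap each other. A GATA match was found in 18.6% of all 32851 promoters of this length in the table and in 11.1% of the promoters of genes tested. Among promoters of genes at least 4-fold higher in ILC2s it was found in 13.8%, and among those at least 4-fold higher in CD8 T cells in 12.96%. The RUNX shares were 22.4% of all promoters, 21.8% for genes tested, 21.5% for genes 4-fold higher in ILC2s and 26.0% for genes 4-fold higher in CD8 T cells. The T-box motif AGGTGT was found in 13.7%, 11.2%, 12.2% and 14.2% in the same order. The windows of Il5, Areg and Gata3 and the 3 windows of Pparg held no GATA match, and the windows of Cd8a and Nkg7 held 1 RUNX match each. Those of Gzmb and Ifng held no T-box match, while that of Prf1 held 1.

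The transcription factors of ILC2s were higher in ILC2s for 11 of 13 tested members, with a median log2 difference of 2.72. Pparg, a lipid-activated nuclear receptor, showed the widest gap, with 361 and 319.7 CPM in the ILC2 libraries and 0.423 and 0.343 CPM in the CD8 T cell libraries (log2 difference 10.001, SE 0.17, edgeR adjusted p = 1.0e-15). Maf (6.56, SE 0.18), Klf4 (5.97, SE 0.24) and Mycn (4.34, SE 0.14) followed. Rora stood at 861 and 755 CPM in the ILC2 libraries and 135 and 149.8 CPM in the CD8 T cell libraries (2.72, SE 0.10) and Id2, the inhibitor of DNA binding needed for innate lymphoid cells, at 1784 and 1973 CPM against 219 and 218 CPM (3.32, SE 0.09). Gfi1 was the exception, higher in CD8 T cells (-0.74, SE 0.09), and Bcl11b, which both lineages use, stood close (0.49, SE 0.12), a call that ended without CD8 co-cultured replicate 1 (edgeR adjusted p = 0.0727).

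Among 24 transcription factors of T cells and effector cells, 15 were higher in CD8 T cells, 7 were higher in ILC2s and 2 were not called, with a median of -1.21. Eomes (log2 difference -5.37, SE 0.17), Tcf7 (-5.13, SE 0.12) and Tbx21 (-4.84, SE 0.12), which encode eomesodermin, TCF-1 and T-bet, were the most skewed. Tcf7 stood at 486 and 495 CPM in the CD8 T cell libraries and 13.3 and 10.9 CPM in the ILC2 libraries, and Tbx21 at 245 and 226 CPM against 6.75 and 7.49 CPM. Bach2, a repressor kept on in naive and memory T cells, was higher in CD8 T cells as well (-2.69, SE 0.11). In the other direction Prdm1, the gene of BLIMP-1, stood at 315 and 269 CPM in the ILC2 libraries and 13.9 and 13.9 CPM in the CD8 T cell libraries (4.61, SE 0.12), and Batf, a partner of IRF4, at 181 and 215 CPM against 32.3 and 33.1 CPM (2.81, SE 0.11). Irf4 itself was higher in CD8 T cells (-1.399, SE 0.11). Runx3, known for its part in the CD8 lineage, was slightly higher in ILC2s, at 318 and 314 CPM in the ILC2 libraries and 216 and 255 CPM in the CD8 T cell libraries (0.64, SE 0.10).

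Cytokines and mediators of type 2 immunity were higher in ILC2s for 14 of 16 tested members, with 1 higher in CD8 T cells and a median of 3.27. Areg, which encodes the epithelial growth factor amphiregulin, stood at 213 and 239.9 CPM in the ILC2 libraries and 0.393 and 0.462 CPM in the CD8 T cell libraries (log2 difference 9.25, SE 0.16). Calca, the gene of calcitonin and the neuropeptide CGRP, stood at 132 and 160.4 CPM in ILC2s and 0.227 and 0.253 CPM in CD8 T cells (9.44, SE 0.19), while its neighbour Calcb was the member higher in CD8 T cells, at 21.3 and 20.2 CPM against 0.681 and 0.562 CPM (-4.84, SE 0.20). Hbegf (6.09, SE 0.20) and Il10 (4.98, SE 0.21) were also higher in ILC2s. Csf2, the gene of GM-CSF, was low in both, at 1.61 and 1.83 CPM in ILC2s and 0.529 and 0.567 CPM in CD8 T cells (1.86, SE 0.36). Il9 (19.9 and 30.2 CPM), Il13 (8.62 and 12.2 CPM) and Il4 (3.59 and 3.37 CPM) were listed for ILC2s only. Il5, Il13 and Il4 share a cluster on chromosome 11 (53602982 to 53778374), where their neighbours Rad50 (1.38, SE 0.12) and Irf1 (1.704, SE 0.09) were also higher in ILC2s.

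**Figure D2:**
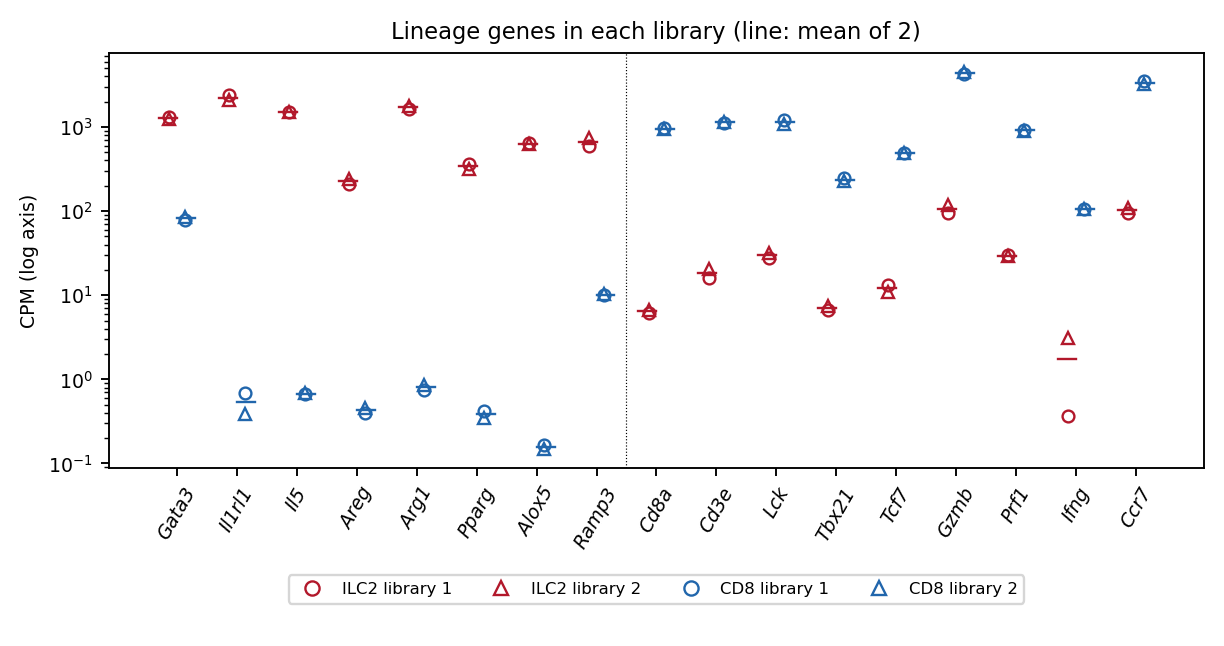
CPM (log axis) of lineage genes in each of the 4 libraries labelled co-cultured, with library 1 as circles, library 2 as triangles and the mean of 2 as a line. ILC2 libraries are red and CD8 T cell libraries blue. Genes left of the dotted line were higher in ILC2s and genes right of it in CD8 T cells, and replicates lie close together except for Ifng in ILC2s.

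Genes of the T cell receptor complex and its coreceptors were higher in CD8 T cells for 18 of 20 tested members, with 0 higher in ILC2s and a median of -4.13. Trac, the constant region of the receptor alpha chain, stood at 1159.5 and 1218 CPM in the CD8 T cell libraries and 11.6 and 17.6 CPM in the ILC2 libraries (log2 difference -6.14, SE 0.16, edgeR adjusted p = 5.5e-14). Cd5 (-5.98, SE 0.14), Cd3d (-5.94, SE 0.16) and Cd3e (-5.76, SE 0.12) differed nearly as much. Cd3g was less skewed than the other CD3 chains, at 678 and 666 CPM in CD8 T cells and 71.3 and 83.6 CPM in ILC2s (-2.91, SE 0.10). Trdc, the delta chain constant region, and Ptprcap were not called (log2 difference -0.15, SE 0.18 and -0.22, SE 0.11). The similar genes Trbc1 and Trbc2 may share reads, so their separate values are uncertain.

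Segments of the T cell receptor alpha and beta chains pointed the same way. All 11 Trav, 13 Traj, 10 Trbv and 14 Trbj segments tested were higher in CD8 T cells, and a further 98 Trav, 39 Traj and 13 Trbv segments were listed for CD8 T cells only. Summed over segments in both tables, Trbv reads reached 126.3 CPM in CD8 T cells and 2.24 CPM in ILC2s, which is 1.77% of the CD8 level. The share in ILC2s was 2.55% for Trav, 2.81% for Traj and 14.5% for Trbj segments. Trdv4, a delta chain segment, was the exception, with 1126 and 1166 reads in the ILC2 libraries and 5 and 7 reads in the CD8 T cell libraries, while the gamma chain gene Tcrg-C4 stood at a mean of 28.1 and 1.32 CPM. Antibody variable segments were listed for ILC2s only, with 73 Ighv segments at a summed 33.45 CPM and 41 Igkv segments at 40.1 CPM.

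Downstream of the receptor the difference was less uniform. Of 33 signalling genes tested, 24 were higher in CD8 T cells, 3 in ILC2s and 6 were not called, with a median of -1.04. Lck, the kinase that starts the signal, stood at 1224 and 1099 CPM in the CD8 T cell libraries and 27.7 and 31.9 CPM in the ILC2 libraries (log2 difference -5.07, SE 0.11, edgeR adjusted p = 9.2e-15). Txk (-4.04, SE 0.10), Themis (-3.84, SE 0.13) and Sh2d1a (-2.85, SE 0.26) followed. Zap70, the next kinase in line, was not called, at 159.8 and 197 CPM in the ILC2 libraries and 204 and 196 CPM in the CD8 T cell libraries (0.05, SE 0.10), and neither was Vav1 (0.04, SE 0.09). Pag1, an adaptor that restrains LCK (2.45, SE 0.16), Tec (2.25, SE 0.10) and Nck1 (0.26, SE 0.11) were the members higher in ILC2s. The call of Nck1 ended without CD8 co-cultured replicate 1 or 2 (edgeR adjusted p = 0.19 and 0.258) and without ILC2 co-cultured replicate 1 (0.256). It also ended with a replicate block (0.0618), RLE size factors (0.0506), the library total alone (0.712), scaling to ribosomal protein genes (0.0847), no filter on low counts (0.0746) and a fit of all 8 libraries (0.0922).

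Killing genes followed, with 17 of 23 tested members higher in CD8 T cells, 2 in ILC2s and 4 not called, and a median of -2.48 (4 in ILC2s with upper quartile scaling). Besides Gzmb, Prf1, the perforin gene, stood at 929 and 908 CPM in the CD8 T cell libraries and 29.9 and 29.3 CPM in the ILC2 libraries (log2 difference -4.74, SE 0.10, edgeR adjusted p = 7.8e-15), and Fasl at 91.9 and 85.3 CPM against 1.69 and 0.936 CPM (-5.86, SE 0.19). The intracellular serpins that shield cells from granule proteases were on the same side: Serpinb9b (-6.35, SE 0.16), Serpinb6b (-5.39, SE 0.10) and Serpinb9 (-5.21, SE 0.12). Gzma stood at 1189 and 1181 CPM in CD8 T cells and 112 and 140.5 CPM in ILC2s (-3.02, SE 0.10). Srgn, which encodes the granule proteoglycan serglycin, went the other way, at 2237 and 2766 CPM in the ILC2 libraries and 596 and 637 CPM in the CD8 T cell libraries (2.23, SE 0.10), as did the granule fusion gene Stx11 (1.33, SE 0.10). Unc13d, Stxbp2 and Cst7 were not called (log2 differences 0.21, -0.03 and 0.21). Granzyme and serpin genes have close relatives, so reads shared between them make single members uncertain.

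NK-type receptors had the lowest median of the 33 biology lists, -4.24, with 13 of 21 tested members higher in CD8 T cells, 4 in ILC2s and 4 not called. Klrk1, the activating receptor NKG2D, stood at 536 and 510.5 CPM in the CD8 T cell libraries and 8.56 and 7.45 CPM in the ILC2 libraries (log2 difference -5.82, SE 0.12), Cd160 at 170.01 and 163 CPM against 1.79 and 2.81 CPM (-5.97, SE 0.16) and Slamf7 at 396 and 406 CPM against 6.93 and 8.32 CPM (-5.503, SE 0.12). The 4 members higher in ILC2s were the adaptor genes Fcer1g (1.74, SE 0.30) and Hcst (1.13, SE 0.19), the Fc receptor gene Fcgr3 (1.35, SE 0.24) and Cd244a (2.39, SE 0.14). Hcst encodes DAP10, the adaptor through which NKG2D signals, so the receptor and its adaptor were called in opposite directions.

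Type 1 cytokines and their receptors were split, with 9 of 18 tested members higher in CD8 T cells, 8 in ILC2s and 1 not called (median -0.33). Ifng, the interferon gamma gene, stood at 106 and 106 CPM in the CD8 T cell libraries and 0.371 and 3.12 CPM in the ILC2 libraries (log2 difference -5.72, SE 0.40, edgeR adjusted p = 4.8e-09). Its ILC2 libraries differed from each other more than those of any other gene in the plot of lineage genes, with 18 and 150 reads. The interleukin-12 receptor chain gene Il12rb2 (-4.96, SE 0.10), the chemokine receptor gene Cxcr3 (-5.29, SE 0.22) and Il21r (-3.87, SE 0.10) were higher in CD8 T cells. Lta, encoding lymphotoxin alpha, stood at 12.7 and 13.04 CPM in the ILC2 libraries and 2.297 and 2.296 CPM in the CD8 T cell libraries (2.698, SE 0.17), and the other interleukin-12 receptor chain gene, Il12rb1, was higher in ILC2s (1.22, SE 0.09).

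Shared cytokine signalling genes lay closer together. Of 21 genes of the common gamma chain family and of STAT5 targets, 11 were higher in ILC2s, 7 in CD8 T cells and 3 were not called, with a median of 0.27. With the library total alone, 8 and 9 were, with a median of 0.06. Il2rg, the common gamma chain, stood at 777 and 807 CPM in the ILC2 libraries and 947 and 935 CPM in the CD8 T cell libraries and was not called (log2 difference -0.04, SE 0.08, edgeR adjusted p = 0.69). Il2rb (0.41, SE 0.08) and Jak3 (1.04, SE 0.08) were slightly higher in ILC2s, and Stat5a (-1.56, SE 0.10) and Stat5b (-0.63, SE 0.09) in CD8 T cells. Socs2, a feedback inhibitor of cytokine receptors, stood far apart from the other members, at 81.4 and 87.8 CPM in the ILC2 libraries and 0.453 and 0.417 CPM in the CD8 T cell libraries (log2 difference 7.81, SE 0.17, edgeR adjusted p = 8.6e-15).

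Chemokine genes separated the cells sharply although few were tested. Of 11, 5 were higher in CD8 T cells, 4 in ILC2s and 2 were not called. Xcl1, which draws cross-presenting dendritic cells, stood at 107 and 83.7 CPM in the CD8 T cell libraries and 0.351 and 1.04 CPM in the ILC2 libraries (log2 difference -6.89, SE 0.25, edgeR adjusted p = 3.0e-12). With Ccl3 and Ccl4, neighbours on chromosome 11, it made the group with the widest gaps, while Ccl5 differed less, at 20.1 and 19.4 CPM against 4.002 and 4.78 CPM (-1.95, SE 0.15). Cxcl3, a neutrophil chemokine, stood at 9.18 and 11.6 CPM in the ILC2 libraries and 0.166 and 0.149 CPM in the CD8 T cell libraries (6.23, SE 0.28).

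Chemokine receptors and homing molecules were higher in ILC2s for 17 of 31 tested members and in CD8 T cells for 9, with 5 not called and a median of 0.33. Ccr7, which directs lymphocytes to lymph nodes, was far higher in CD8 T cells and stood at 3490.1 and 3211 CPM in the CD8 T cell libraries and 96.1 and 108 CPM in the ILC2 libraries (log2 difference -4.83, SE 0.09). Ccr1 (4.62, SE 0.12), Ccr2 (4.38, SE 0.12), Ccr8 (4.19, SE 0.11) and Ccr4 (2.87, SE 0.13), receptors of inflamed tissue and of type 2 cells, were higher in ILC2s. Cxcr6 stood at 1807 and 1858 CPM in the ILC2 libraries and 267 and 244 CPM in the CD8 T cell libraries (3.06, SE 0.09). Cd69, a marker of activation and of tissue residence, stood at 152 and 142 CPM in the ILC2 libraries and 169.5 and 157 CPM in the CD8 T cell libraries and was not called (0.06, SE 0.10).

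The CC chemokine receptor cluster of chromosome 9, from Ccr9 to Ccr2 (123678439 to 124113557), held genes that differed in opposite directions. Gm10052 and Lztfl1 lie within the span of Ccr9, and Cxcr6 within that of Fyco1, in each case on the opposite strand. The strand setting of the counts is not stated, so the values of these overlapping genes cannot be fully separated. From its start, Ccr9 (log2 difference -4.67, SE 0.12), the pseudogene Gm10052 (-1.42, SE 0.11) and Lztfl1 (-1.43, SE 0.09) were higher in CD8 T cells, then Fyco1 (0.68, SE 0.13), Cxcr6, Xcr1 (3.97, SE 0.20) and Ccr1 were higher in ILC2s, Ccr3 was not called and Ccr2 was higher in ILC2s. Ccr2 stood at 693 and 579 CPM in the ILC2 libraries and 36.6 and 34.3 CPM in the CD8 T cell libraries.

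**Figure D3:**
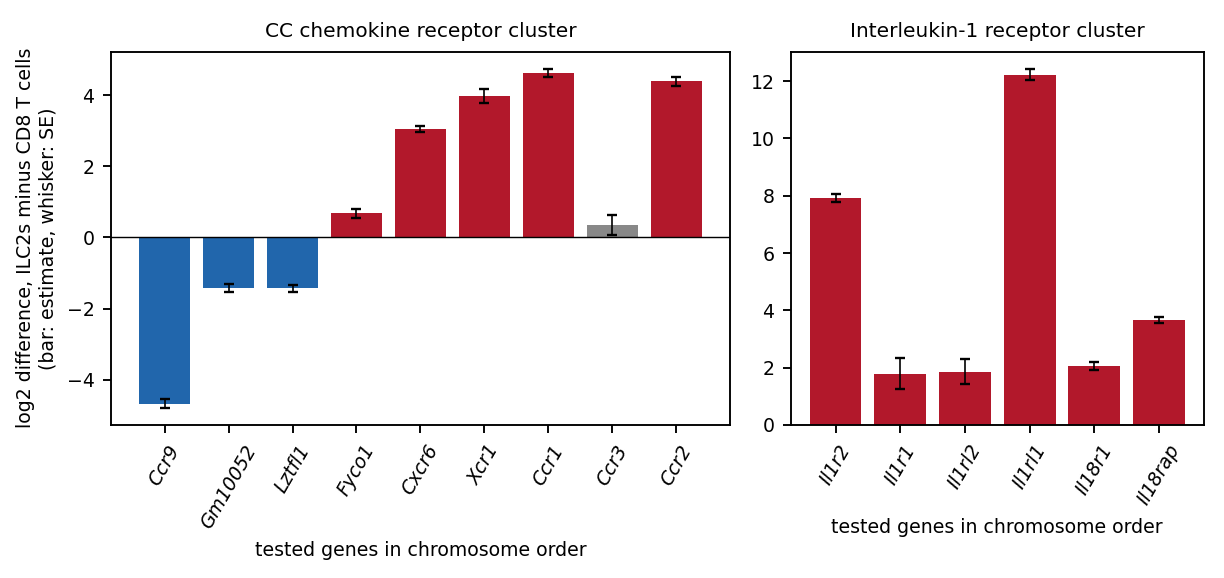
Log2 difference (ILC2s minus CD8 T cells, y axis; bar, edgeR estimate; whisker, SE) of the tested genes of the CC chemokine receptor cluster, left, and of the interleukin-1 receptor cluster, right, in chromosome order. Red bars were higher in ILC2s, blue bars higher in CD8 T cells and the grey bar was not called. The left cluster, which holds overlapping genes on opposite strands, changes sign along its length and the right one does not.

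Genes of naive and memory T cells were higher in CD8 T cells for 18 of 22 tested members, with 3 higher in ILC2s and a median of -2.22. Ccr7 and Tcf7 belong to this list too. Of the others, Tdrp (log2 difference -5.64, SE 0.22), Actn1 (-4.22, SE 0.20) and Igfbp4 (-3.33, SE 0.11) were far higher in CD8 T cells. The members higher in ILC2s were Il7r, S1pr1 (1.22, SE 0.10), which lets lymphocytes leave tissues, and Ly6c1 (3.39, SE 0.23). Ly6c1 may share reads with its close relative Ly6c2, so its value is uncertain. Killing genes such as Gzmb and Prf1 and the lymph node homing gene Ccr7 were thus both higher in CD8 T cells, in bulk libraries that do not show whether the same cells carried them.

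Inhibitory receptors were split, with 10 of 16 members higher in CD8 T cells and 6 higher in ILC2s (median -0.55). Pdcd1, the gene of PD-1, stood at 296 and 272 CPM in the ILC2 libraries and 174 and 154 CPM in the CD8 T cell libraries (log2 difference 1.01, SE 0.10), and Ctla4 at 1729.7 and 1684 CPM against 814 and 735 CPM (1.35, SE 0.08), both higher in ILC2s. Lag3 stood at 60.7 and 67.1 CPM in the CD8 T cell libraries and 1.88 and 2.39 CPM in the ILC2 libraries (-4.69, SE 0.16). Cd200r1, which restrains type 2 and myeloid cells, was higher in ILC2s (4.74, SE 0.13), and so was Cd274, the gene of the PD-1 ligand PD-L1 (1.66, SE 0.12). Members of the TNF receptor family were split evenly, 7 in each direction of 14, with Tnfrsf9, the gene of 4-1BB, at 3494 and 3769 CPM in the ILC2 libraries and 1626 and 1489 CPM in the CD8 T cell libraries (1.43, SE 0.08), Tnfrsf8 at 306 and 306 CPM against 55.2 and 56.2 CPM (2.67, SE 0.10) and Fas higher in CD8 T cells (-1.52, SE 0.10).

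Genes of antigen presentation by MHC class I were higher in ILC2s for 21 of 31 tested members and in CD8 T cells for 5, with 5 not called and a median of 0.64. The heavy chains and their partner led the list. H2-D1 stood at 18082 and 19330 CPM in the ILC2 libraries and 2638 and 2424 CPM in the CD8 T cell libraries (log2 difference 3.098, SE 0.07, edgeR adjusted p = 1.6e-14), H2-K1 at 10802 and 11227 CPM against 2292 and 2167 CPM (2.52, SE 0.07) and B2m at 4536 and 5102 CPM against 1224 and 1386 CPM (2.096, SE 0.09). Summed over the list, 50318 ± 1876 CPM fell to it in ILC2s and 14817 ± 337.7 CPM in CD8 T cells (SD, n = 2). Reads that H2-K1, H2-D1, H2-Q6 and H2-Q7 share make the separate values of these relatives uncertain.

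Genes of the peptide loading machinery differed by smaller amounts. Tapbp, which encodes tapasin, stood at 1619 and 1663 CPM in the ILC2 libraries and 579 and 536 CPM in the CD8 T cell libraries (log2 difference 1.77, SE 0.08), the chaperone gene Pdia3 at 1568 and 1492 CPM against 630.4 and 579.6 CPM (1.55, SE 0.08), and the peptide transporter genes Tap1 and Tap2 differed by 0.64 and 0.94. Sec61a1, the translocon channel named in models of antigen export from endosomes, was higher in ILC2s (1.16, SE 0.09). Tapbpl, the tapasin-related peptide editor, went against its relative, at 295 and 274 CPM in the CD8 T cell libraries and 81.2 and 76.8 CPM in the ILC2 libraries (log2 difference -1.63, SE 0.10, edgeR adjusted p = 7.3e-10). The immunoproteasome gene Psmb8 and the trimming enzyme gene Erap1 were not called (0.14, SE 0.09 and 0.23, SE 0.10), and the proteasome activator genes Psme2 and Psme3 were higher in CD8 T cells (-0.49 and -0.82).

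Of 20 tested genes of MHC class II presentation, 13 were higher in ILC2s, 4 in CD8 T cells and 3 were not called, with a median of 0.80. Cd74, the invariant chain, stood at 137 and 163 CPM in the ILC2 libraries and 1.66 and 1.89 CPM in the CD8 T cell libraries (log2 difference 6.61, SE 0.15, edgeR adjusted p = 1.2e-14). H2-Aa, an alpha chain gene, stood at 25.2 and 30.5 CPM against 0.166 and 0.149 CPM (7.66, SE 0.23), while its partner H2-Ab1 was present in both, at 254 and 288 CPM in the ILC2 libraries and 173 and 172 CPM in the CD8 T cell libraries (0.86, SE 0.09). Ciita, the class II transactivator, was low, at 4.56 and 6.41 CPM against 0.348 and 0.298 CPM (4.29, SE 0.30). Lgmn, an endosomal protease that processes antigen, stood at 136 and 155 CPM in the ILC2 libraries and 0.6498 and 1.16 CPM in the CD8 T cell libraries (7.53, SE 0.19). H2-DMa and H2-Ob were higher in CD8 T cells (-0.85, SE 0.11 and -0.93, SE 0.14). Beside this list, all 8 tested B and plasma cell markers were higher in ILC2s: Cd79a, of the B cell receptor, stood at 15.6 and 16.1 CPM in the ILC2 libraries and 0.242 and 0.462 CPM in the CD8 T cell libraries, and Igkc, an antibody light chain gene, at 154 and 136 CPM against 1.96 and 2.01 CPM. Ms4a1 (3.57 and 4.597 CPM) was listed for ILC2s only, and the summed level of the 8 tested markers was 764 ± 47.3 CPM in ILC2s and 179.8 ± 2.74 CPM in CD8 T cells. Cd79a and Igkc made up a minor part of that sum in either cell type, so the sum does not measure B cell content. The part of B cells in the class II differences was not tested.

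**Figure D4:**
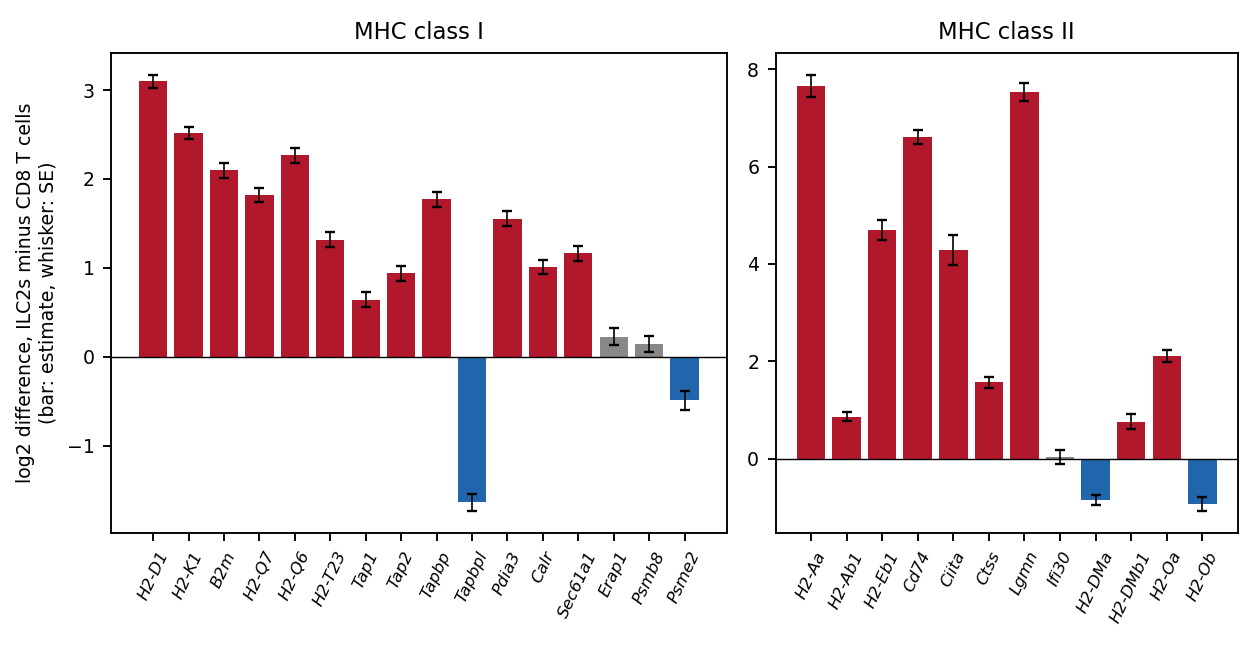
Log2 difference (ILC2s minus CD8 T cells, y axis; bar, edgeR estimate; whisker, SE) of selected genes of MHC class I presentation, left, and of MHC class II presentation, right, on separate scales. Red bars were higher in ILC2s, blue bars higher in CD8 T cells and grey bars were not called. Heavy chains and B2m stand highest on the left, and H2-Aa, Lgmn and Cd74 on the right.

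Genes of antigen uptake and endosomes were nearer to balance. Of 23 tested, 11 were higher in ILC2s, 5 in CD8 T cells (8 with the library total alone, 3 with scaling to ribosomal protein genes) and 7 were not called, with a median of 0.23. The share called in this list, 69.6%, was near the 68.8% over all genes tested. Lrp1, a large scavenger and endocytic receptor, stood at 18.96 and 19.5 CPM in the ILC2 libraries and 1.83 and 2.13 CPM in the CD8 T cell libraries (log2 difference 3.49, SE 0.17), and the scavenger receptor gene Stab1 at 23.3 and 25.6 CPM against 4.49 and 5.25 CPM (2.54, SE 0.15). Itgb5, an integrin chain of apoptotic cell uptake, had 1741 and 1895 reads in the ILC2 libraries and 8 and 18 in the CD8 T cell libraries. The general coat and fission genes Cltc, Dnm2 and Ap2m1 were not called (log2 differences 0.17, 0.23 and -0.19).

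Costimulatory ligands were split, 9 higher in ILC2s, 7 in CD8 T cells and 3 not called of 19, with a median of -0.04 that became 0.04 when libraries were scaled to ribosomal protein genes. With the library total alone, 8 were higher in ILC2s and 9 in CD8 T cells (median -0.25). Icosl stood at 10.8 and 9.96 CPM in the ILC2 libraries and 1.31 and 0.552 CPM in the CD8 T cell libraries (log2 difference 3.69, SE 0.29) and Cd86 at 1.79 and 2.04 CPM against 0.302 and 0.313 CPM (2.84, SE 0.38), both higher in ILC2s and both at low levels. Tnfsf4, the gene of OX40 ligand, was higher in CD8 T cells, at 37.6 and 35.5 CPM in the CD8 T cell libraries and 5.26 and 6.53 CPM in the ILC2 libraries (-2.42, SE 0.14). Cd80 was low in both (0.722 and 0.478 CPM and 1.602 and 1.64 CPM).

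Immediate early genes were higher in CD8 T cells for 11 of 19 members and in ILC2s for 7, with a median of -2.42. The NR4A and EGR genes, which follow T cell receptor signals, were higher in CD8 T cells, with Nr4a1 at 418 and 406 CPM in the CD8 T cell libraries and 27.1 and 29.95 CPM in the ILC2 libraries (log2 difference -3.64, SE 0.10), and with Nr4a2 (-5.43, SE 0.14) and Egr2 (-4.25, SE 0.14) beside it. Dusp2 (-4.89, SE 0.17) and Myc (-2.93, SE 0.09) went with them. Junb stood at 1737 and 1866 CPM in the ILC2 libraries and 862 and 814 CPM in the CD8 T cell libraries (1.32, SE 0.08), and Fosl2 (2.71, SE 0.10), Jun (0.94, SE 0.10) and Dusp1 (1.78, SE 0.13) were also higher in ILC2s, whereas Fos (-1.498, SE 0.13) was higher in CD8 T cells. Of 18 handling stress genes, 12 were higher in CD8 T cells and 6 in ILC2s, and this list shares members such as Fos, Jun and Egr1 with the immediate early genes.

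NF-kB pathway genes were higher in ILC2s for 10 of 18 members and in CD8 T cells for 4 (7 and 8 with the library total alone), with a median of 0.28. In this list 77.8% were called, against 68.8% over all genes tested. Tnfaip3, the gene of the feedback inhibitor A20, stood at 1052 and 925 CPM in the ILC2 libraries and 423 and 422 CPM in the CD8 T cell libraries (log2 difference 1.44, SE 0.09), and Irak3, a brake on interleukin-1 and interleukin-33 receptor signals, at 18.2 and 15.4 CPM against 1.47 and 1.51 CPM (3.71, SE 0.18). Rel stood at 37.2 and 36.4 CPM in the CD8 T cell libraries and 8.85 and 7.01 CPM in the ILC2 libraries (edgeR adjusted p = 7.4e-09), and Rela was not called (-0.13, SE 0.09).

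Interferon response genes were higher in ILC2s for 25 of 36 tested members and in CD8 T cells for 4, with 7 not called and a median of 1.03. Gbp4, a guanylate-binding protein gene, stood at 739 and 618 CPM in the ILC2 libraries and 96.9 and 80.9 CPM in the CD8 T cell libraries (log2 difference 3.15, SE 0.12), Isg20 at 15.7 and 16.4 CPM against 1.62 and 1.82 CPM (3.43, SE 0.18) and Rtp4 at 3.75 and 5.87 CPM against 0.287 and 0.224 CPM (4.43, SE 0.34). The antiviral genes did not all go together: Usp18, which limits interferon signals, stood at 209.7 and 185 CPM in the CD8 T cell libraries and 23.5 and 22.3 CPM in the ILC2 libraries (log2 difference -2.89, SE 0.11, edgeR adjusted p = 4.2e-12), and Ifit2 was higher in CD8 T cells as well (-3.85, SE 0.24). The TGF-beta and activin list was higher in ILC2s for 14 of 19 members and in CD8 T cells for 3 (median 0.82), led by Acvr2a (3.67, SE 0.19) and Acvr1b (2.14, SE 0.19). Acvrl1, another receptor of that family, stood at 88.7 and 102 CPM in the CD8 T cell libraries and 2.81 and 3.39 CPM in the ILC2 libraries (-4.73, SE 0.15).

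Survival genes differed by member. Of 21 genes of the BCL2 family and apoptosis, 9 were higher in each cell type and 3 were not called. Bcl2 was higher in CD8 T cells (log2 difference -1.69, SE 0.10) and Bcl2l1, the gene of BCL-XL, in ILC2s (1.15, SE 0.11). Among the killers, Bcl2l11, which encodes BIM, stood at 131 and 143 CPM in the CD8 T cell libraries and 10.1 and 12.4 CPM in the ILC2 libraries (-3.400, SE 0.12), whereas Bik (4.15, SE 0.17) and Pmaip1 (2.82, SE 0.12) were higher in ILC2s. Mcl1 was not called (-0.07, SE 0.09).

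Genes of lipid mediators and of arginine set ILC2s apart by few members. Alox5, the 5-lipoxygenase that starts leukotriene synthesis, stood at 639 and 629 CPM in the ILC2 libraries and 0.166 and 0.149 CPM in the CD8 T cell libraries (log2 difference 12.17, SE 0.16, edgeR adjusted p = 1.2e-16), with 11 and 10 reads behind the CD8 values, while 5 of the 10 tested genes of arachidonic acid metabolism were higher in ILC2s, 3 in CD8 T cells and 2 were not called. Of 18 genes of arginine and polyamine metabolism, 8 were higher in ILC2s and 10 in CD8 T cells (7 with scaling to ribosomal protein genes). Beside Arg1, Smox, which oxidises spermine, stood at 828 and 834 CPM in the ILC2 libraries and 91.5 and 79.6 CPM in the CD8 T cell libraries (3.49, SE 0.10), and the arginine transporter gene Slc7a2 at 5.03 and 3.81 CPM against 0.393 and 0.343 CPM (3.79, SE 0.31). Srm, which makes spermidine, was higher in CD8 T cells (-1.75, SE 0.13).

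Lipid storage was also marked by single genes. Of 24 tested genes of lipid uptake, storage and oxidation, 11 were higher in ILC2s, 8 in CD8 T cells and 5 were not called, and the median was 0.16, or -0.05 with the library total alone, when 10 were higher in ILC2s and 12 in CD8 T cells. Dgat1, the last enzyme of triglyceride synthesis, stood at 4572 and 4789 CPM in the ILC2 libraries and 549 and 528 CPM in the CD8 T cell libraries (log2 difference 3.33, SE 0.08, edgeR adjusted p = 2.0e-14). The lipid droplet gene Plin2 (2.59, SE 0.09) and the lipase gene Mgll (4.37, SE 0.18) were higher in ILC2s, and Cpt2, of mitochondrial fatty acid import, in CD8 T cells (-1.24, SE 0.11).

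Most tested genes of sterol synthesis and respiration had higher RNA levels in CD8 T cells. Of 29 genes of cholesterol and fatty acid synthesis, 23 were higher in CD8 T cells, 1 in ILC2s and 5 were not called (median -1.30). Hmgcs1 stood at 411 and 406 CPM in the CD8 T cell libraries and 54.6 and 52.4 CPM in the ILC2 libraries (log2 difference -2.72, SE 0.10, edgeR adjusted p = 1.8e-12), and Cyp51 (-2.61, SE 0.10), Mvk (-2.61, SE 0.17) and Idi1 (-2.604, SE 0.11) differed by similar amounts. Of 31 nuclear genes of oxidative phosphorylation, 29 were higher in CD8 T cells and 0 in ILC2s (median -0.92). Their differences were modest, with Ndufc1 (-1.904, SE 0.19) and Ndufa9 (-1.78, SE 0.11) the largest and Cox4i1 and Atp5c1 not called (-0.04 and -0.21).

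Of 24 glycolysis genes, 9 were higher in ILC2s, 8 in CD8 T cells and 7 were not called, with a median of -0.06 that became 0.04 when libraries were scaled to ribosomal protein genes. With the library total alone, 7 were higher in ILC2s and 12 in CD8 T cells (median -0.27). The share of glycolysis genes called, 70.8%, was near the 68.8% over all genes tested. The glucose transporters parted, with Slc2a1 at 730.1 and 732 CPM in the ILC2 libraries and 427 and 422 CPM in the CD8 T cell libraries (log2 difference 0.997, SE 0.08) and Slc2a3 at 901 and 946 CPM against 2826 and 2782 CPM (-1.39, SE 0.08). Hk2 was higher in ILC2s (1.704, SE 0.11), and Pdk1, which diverts pyruvate from mitochondria, in CD8 T cells (-1.66, SE 0.09). Among amino acid stress and serine synthesis genes, the factors Atf4 (1.67, SE 0.09) and Ddit3 (1.72, SE 0.11) were higher in ILC2s, whereas the serine synthesis genes Phgdh (-2.01, SE 0.11), Psph (-1.64, SE 0.13) and Psat1 (-1.596, SE 0.10) were higher in CD8 T cells. In all, 12 of 23 members were higher in CD8 T cells and 8 in ILC2s (median -0.69).

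Cell cycle genes were higher in CD8 T cells with few exceptions. All 24 genes of mitosis were higher in CD8 T cells (median -1.80), and so were 23 of 26 genes of S phase and DNA replication (median -2.06). Ccnb1, the mitotic cyclin, stood at 247 and 227 CPM in the CD8 T cell libraries and 44.01 and 40.4 CPM in the ILC2 libraries (log2 difference -2.28, SE 0.10, edgeR adjusted p = 3.3e-11), Top2a at 501 and 527 CPM against 169 and 131 CPM (-1.56, SE 0.12) and the replication factor gene Cdc45 at 110.3 and 109 CPM against 13.7 and 13.8 CPM (-2.78, SE 0.11). Mki67 differed less than most, at 76.6 and 83.99 CPM against 41.5 and 39.05 CPM (-0.78, SE 0.11). Ccne2 was the S phase member higher in ILC2s (0.94, SE 0.16). Of 89 ribosomal protein genes, 29 were higher in CD8 T cells, 14 in ILC2s and 46 were not called (median -0.14), and with the library total alone 49 and 7 were.

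**Figure D5:**
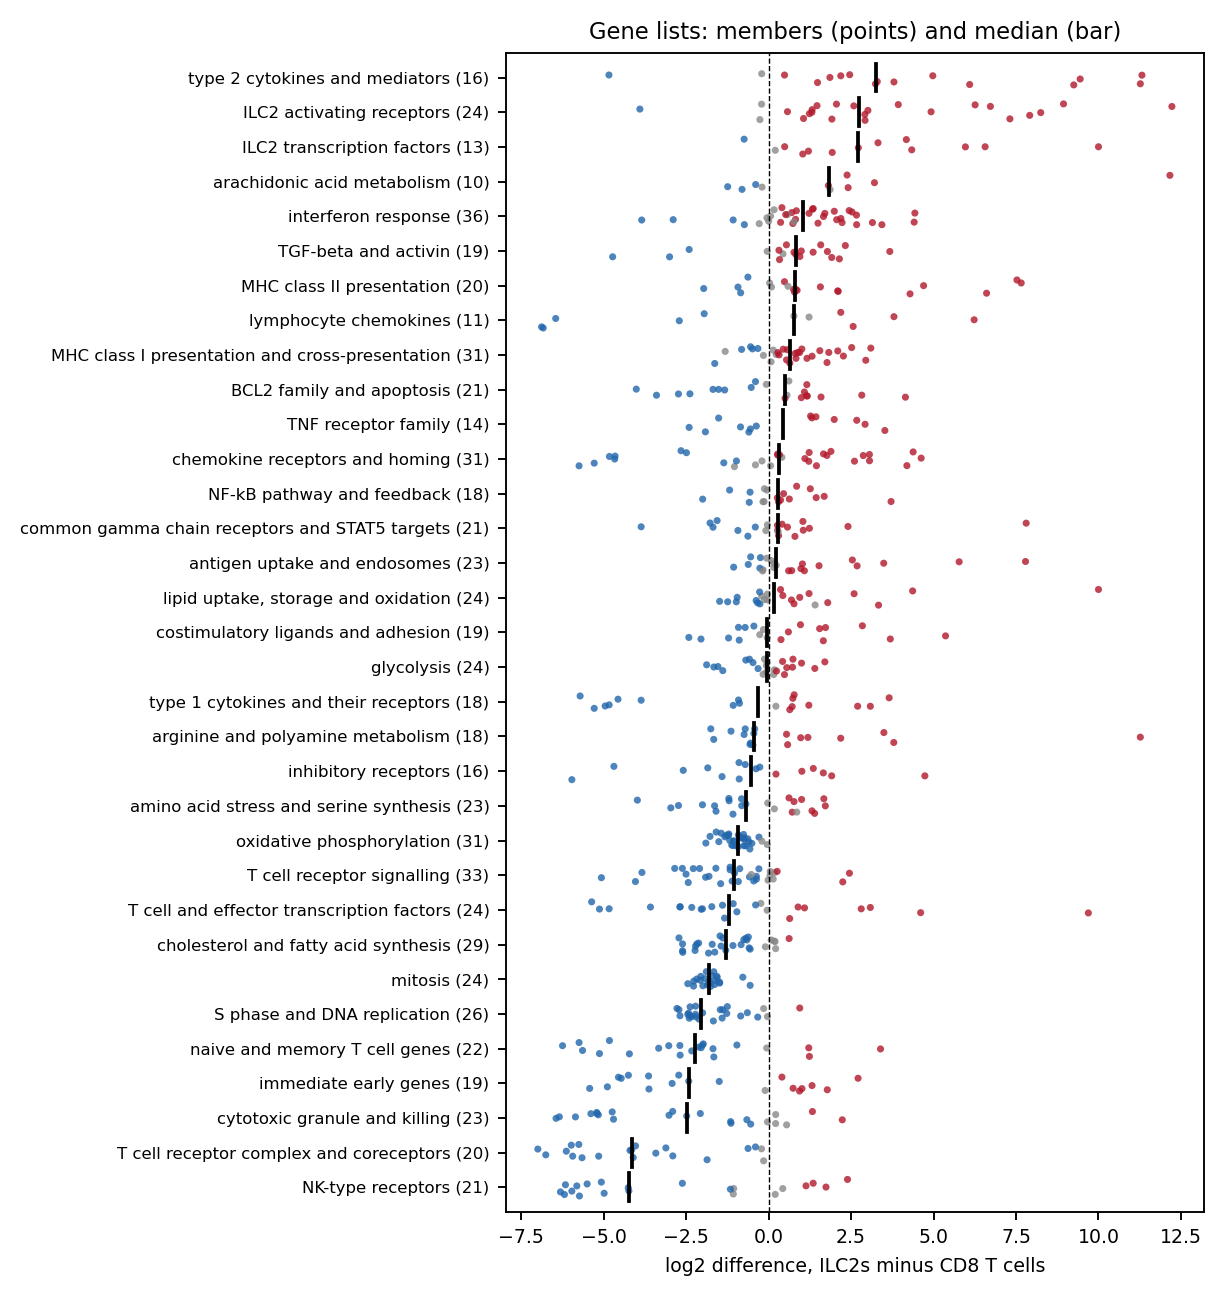
Log2 difference (ILC2s minus CD8 T cells, x axis) of each tested member of 33 biology lists, with the number tested in brackets and the black bar at the median. Red points were higher in ILC2s, blue points higher in CD8 T cells and grey points not called. The lists run from type 2 cytokines (median 3.27) to NK-type receptors (median -4.24).

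Some large differences rest on few reads in the lower cell type: 766 called genes had under 10 reads in a library, 408 of them higher in ILC2s and 358 higher in CD8 T cells. The highest in ILC2s were the collagen gene Col18a1, with 16429 and 15685 reads in ILC2s and 8 and 4 in CD8 T cells, and the transcription factor gene Hlf, with 15608 and 14437 and 9 and 3 reads. Tox2 (7749 and 6895 against 8 and 20 reads), the complement gene C2 (7176 and 6538 against 8 and 23) and the heparan sulphate sulfotransferase gene Hs3st1 (3716 and 4115 against 2 and 5) followed. On the CD8 side were Dapl1, with 1349 and 1106 reads in CD8 T cells and 11 and 9 in ILC2s, Igsf23 (1182 and 1232 against 9 and 9), the receptor segments Trbv3 (1129 and 1024 against 6 and 10) and Trbv19 (769 and 816 against 5 and 7), and Nmnat2 (625 and 678 against 4 and 31). No fold change is given for these genes.

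Genes listed for only 1 cell type were low in most cases. Of the 2163 in the ILC2 table only, 474 reached 1 CPM on average and 74 reached 10 CPM, against 172 and 2 of the 1416 in the CD8 T cell table only. The most abundant for ILC2s were the protease gene Ctsh (278 and 301 CPM), Klrg1, Tph1 (133 and 143 CPM), which encodes the enzyme that starts serotonin synthesis, Il17rb and the matrix metalloproteinase gene Mmp25 (64.6 and 54.9 CPM). For CD8 T cells they were Evi2 (64.9 and 37.6 CPM), Trbv1 (12.3 and 12.02 CPM), Mgl2 (7.45 and 8.07 CPM), Igfbp2 (6.45 and 6.66 CPM) and Trbv29 (6.24 and 6.81 CPM). No symbol in either table had 0 reads in any of its libraries, so a gene without reads in a single library of a table would not be in it, and absence from a table does not give the level there.

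Because the labels give these cells a shared culture, the level of each marker in the other cell type was read as a share of its level in its own. CD8 T cell markers stood in ILC2s at 0.675% (Cd8a), 0.799% (Cd8b1), 0.993% (Nkg7), 1.23% (Trac), 1.41% (Cd3d), 1.599% (Cd3e), 2.09% (Eomes), 2.41% (Gzmb) and 11.5% (Cd3g) of their CD8 level. The receptor segments Trbv3 and Trbv19 stood there at 1.03% and 1.05%. Markers of ILC2s stood in CD8 T cells at 0.0242% (Il1rl1), 0.0452% (Il5), 0.0468% (Arg1), 0.113% (Pparg), 0.189% (Areg), 0.379% (Nmur1), 0.726% (Cysltr1), 6.41% (Gata3), 11.6% (Id2) and 17.6% (Rora) of their ILC2 level. The ranges overlap, and the lowest shares were those of ILC2 markers in CD8 T cells. Among genes of at least 100 CPM in the higher cell type, 24 of 1155 higher in ILC2s were under 1% in CD8 T cells, against 7 of 1111 higher in CD8 T cells that were under 1% in ILC2s. Below 0.5% the numbers were 17 and 0. The lowest share was 0.0242% among those higher in ILC2s and 0.573% among those higher in CD8 T cells. What part reads from the other cell type have in the differences was not tested.

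Levels of markers of other cells differed by list and by member. Of the dendritic cell list, 4 of 10 tested members were higher in ILC2s and 5 in CD8 T cells, and those 5 include Ccr7 and Irf8. The dendritic cell markers in both tables summed to 713.6 ± 49.4 CPM in ILC2s and 5151 ± 220.6 CPM in CD8 T cells. Which cells these reads came from was not tested. Of the monocyte and macrophage list, 5 of 17 members were tested, with 2 higher in ILC2s and 2 in CD8 T cells, and Lyz2 stood at 0.248 and 1.08 CPM in ILC2s. In the stroma and epithelium list 3 of 7 tested members were higher in ILC2s, among them Lum, at 105 and 109.9 CPM in the ILC2 libraries and 0.242 and 0.164 CPM in the CD8 T cell libraries, and Krt18, at 43.2 and 48.6 CPM against 0.151 and 0.224 CPM, while Col1a1 was under 2 CPM in every library. Of 4 tested granulocyte and mast cell markers, 2 were higher in ILC2s, 1 in CD8 T cells and 1 was not called, and a further 4 were listed for ILC2s only. The markers in both tables summed to 170.5 ± 19.3 CPM in ILC2s and 383.1 ± 4.42 CPM in CD8 T cells. Cpa3, a mast cell protease gene, had 951 and 894 reads in the ILC2 libraries and 1 and 2 in the CD8 T cell libraries. Of the 8 markers of CD4 and regulatory T cells tested, 4 were higher in CD8 T cells and 3 in ILC2s, with Cd4 itself at 9.76 and 9.35 CPM in CD8 T cells and 2.52 and 1.997 CPM in ILC2s.

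Whether the lineage difference depended on the culture was asked with all 8 libraries. The difference between ILC2s and CD8 T cells was not the same in libraries labelled co-cultured and labelled alone for 8313 of 15540 genes tested (53.5%), with the signed value, ILC2s minus CD8 T cells, higher in co-culture for 3187 (20.5%) and lower for 5126 (33.0%). With RLE size factors the numbers were 3885 and 4406. A lower signed value can mean a smaller gap towards ILC2s or a wider gap towards CD8 T cells. Ero1l stood at 12863 and 11137 CPM in ILC2s labelled co-cultured and 1049.7 and 1085 CPM in those labelled alone, and at 1137 and 1100.5 and 1454 and 1576 CPM in CD8 T cells (difference of log2 differences 4.06, SE 0.14, edgeR adjusted p = 2.7e-12). Il5 stood at 312 and 343 CPM in ILC2s and 10.5 and 9.86 CPM in CD8 T cells of the alone groups, and its gap was wider in the libraries labelled co-cultured (6.22, SE 0.17, edgeR adjusted p = 1.4e-13). Alox5 behaved likewise, and stood at 263 and 242 CPM in ILC2s and 12.4 and 10.8 CPM in CD8 T cells of the alone groups (7.63, SE 0.21, edgeR adjusted p = 1.4e-13). Ccr9 turned, from 44.4 and 43.7 CPM in ILC2s and 1.86 and 1.21 CPM in CD8 T cells of the alone groups to 10.98 and 9.402 and 303 and 298 CPM in those labelled co-cultured (-9.605, SE 0.21, edgeR adjusted p = 2.2e-14). Marker genes of other cells differ between the ILC2 groups, as given for Cd8a and Col1a1 above, and their part in these values was not tested.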

How the data were processed

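Bulk RNA of sorted ILC2s and CD8 T cells was sequenced from libraries made with a low-input SMART-Seq kit, per the labels' protocols. The authors deposited whole-number read counts per gene symbol, in a table of 18389 symbols for ILC2s and a table of 17642 for CD8 T cells. Tools named in the submitters' processing notes are StringTie 2.1.3b, SAMtools 1.9, HISAT2 2.1.0 and Trimmomatic 0.38, with mm10 as the build. Annotation, strand setting and handling of shared reads are not stated in these sources, so overlapping antisense genes cannot be separated.

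The deposited counts were joined on symbols in both tables. Differences were tested with edgeR 4.0.16 (R 4.3.3) by the quasi-likelihood F test after TMM scaling and filterByExpr, and a call is a p under 0.05 after Benjamini-Hochberg adjustment over all genes tested. There were 2 residual and 12.7 prior degrees of freedom, so each p rests largely on the spread of other genes. SE is the log2 difference divided by the square root of F. In simulated counts for this comparison over 15139 genes, 75 of 100 genes changed by 1 on the log2 scale and 93 of 98 changed by 2 were recovered, with 7 false calls. Only those genes were changed, evenly in both directions, so the simulation does not give the error where most genes differ. Culture was tested as an interaction over 8 libraries. Alternatives used DESeq2 1.42.0, limma 3.58.1 (voom), other scalings and filters, and left-out libraries.

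Members and the 46 gene lists were chosen with earlier results of these data known, so lists are described by counts and medians only. Named were the 10 largest differences in each direction (mean log2 CPM of at least 4, at least 10 reads in each library), 5 in each direction with under 10 reads in a library, list members, 5 genes listed for 1 cell type only per table and 5 interaction genes in each direction. Cd79a, Igkc and the chromosome neighbours Rad50, Gm10052, Lztfl1, Fyco1, Il1r1 and Il1rl2 were named as list members or neighbours after their values were seen. Coordinates are from GENCODE on GRCm38, where 89.8% of symbols matched a single gene. Promoters are from RefSeq. Every per-sample column was used.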

Additional observations from a re-analysis of the deposited data

Results flagged for a closer look

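For 10 genes, named by a fixed rule of size, the difference between ILC2s and CD8 T cells was itself different between the libraries labelled co-cultured and those labelled alone, by the edgeR interaction test over all 8 libraries. The values are differences of log2 differences, positive where the signed value, ILC2s minus CD8 T cells, was higher in co-culture. The positive values were those of Alox5 (7.63), Il5 (6.22), Stc2 (4.48), Smtnl2 (4.09) and Ero1l (4.06). The negative values, which can mean a smaller gap towards ILC2s or a wider one towards CD8 T cells, were those of Spp1 (-10.24), Serpinb9b (-9.81), Ccr9 (-9.605), Crabp2 (-8.48) and Timp2 (-8.19). Spp1, the gene of osteopontin, stood at 12104 and 12389 CPM in ILC2s labelled alone and 8.21 and 7.86 CPM in those labelled co-cultured. Timp2 stood at 215 and 235 and 1.67 and 1.93 CPM and Crabp2 at 239.9 and 228 and 0.475 and 1.25 CPM in the same groups. Smtnl2 was near level in CD8 T cells, at 49.2 and 51.2 CPM alone and 51.6 and 56.4 CPM co-cultured, against 1.91 and 3.16 and 43.2 and 41.6 CPM in ILC2s. Stc2, the gene of the hormone stanniocalcin 2, stood at 59.9 and 56.6 CPM in the CD8 T cell libraries of the alone group and 4.34 and 4.204 CPM in those labelled co-cultured. The ILC2 libraries labelled alone also held 1068 and 1226 CPM of the stromal gene Col1a1, against 0.6395 and 0.312 CPM in those labelled co-cultured, and its part in these values was not tested. With 2 libraries a group, single outlying libraries could not be looked for.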

How the results depend on the processing

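The number of called genes stayed within 1.5 times that reported under every alternative except a test against a 2-fold difference, which called 3895 genes, 1986 higher in ILC2s and 1909 higher in CD8 T cells. Leaving out a library gave 8830 to 10586 calls, and 7097 to 8430 for the interaction. DESeq2 called 9742 genes and limma-voom 10693. The check by gene covered 272 results, which are log2 differences of genes named in the text and interaction values of the flagged genes. Over 4309 recomputed values of these results, 0 calls turned direction, 43 values lost their call and 42 gained one. The gains were in genes given above as not called and in Smtnl2 and Col1a1, which were not called in the main fit either. Genes not called are therefore not shown to be equal. Replicate numbers are not taken to pair the libraries: the correlation of deviations was -0.067 between the cell types labelled co-cultured, 0.059 between those labelled alone, 0.14 between the ILC2 groups and 0.025 between the CD8 T cell groups. A replicate block gave 10403 calls, 5151 higher in ILC2s and 5252 higher in CD8 T cells, and 8229 for the interaction. Depth limits genes under 10 reads, whose size of difference is uncertain.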

Other observations

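Some relatives within gene families were called in opposite directions. The pairs below were picked after their values had been seen, so they are a description with no test of a pattern. The neuropeptide genes Calca (log2 difference 9.44, SE 0.19) and Calcb (-4.84, SE 0.20) lie next to each other on chromosome 7. The peptide editors Tapbp (1.77, SE 0.08) and Tapbpl (-1.63, SE 0.10), the glucose transporters Slc2a1 (0.997, SE 0.08) and Slc2a3 (-1.39, SE 0.08), the aldolases Aldoa (1.399, SE 0.07) and Aldoc (-1.88, SE 0.10), the Ly6 antigens Ly6c1 (3.39, SE 0.23) and Ly6c2 (-2.68, SE 0.17), the survival genes Bcl2l1 (1.15, SE 0.11) and Bcl2 (-1.69, SE 0.10) and the class II modulators H2-Oa (2.11, SE 0.13) and H2-Ob (-0.93, SE 0.14) parted in the same way. Reads that the close relatives Ly6c1 and Ly6c2 may share make their separate values uncertain.

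Integrins give a further case. Itgb7, the beta 7 chain, stood at 3675 and 3698 CPM in the ILC2 libraries and 1271 and 1239.8 CPM in the CD8 T cell libraries (log2 difference 1.77, SE 0.07). Of the alpha chains that pair with it, Itga4 stood at 181 and 159 CPM in ILC2s and 71.8 and 72.7 CPM in CD8 T cells (1.45, SE 0.10), whereas Itgae, the chain that binds E-cadherin of epithelium, stood at 3.94 and 3.27 CPM and 98.3 and 112 CPM (-4.66, SE 0.15). Itgb3 (3.06, SE 0.10) and its partner Itgav (1.89, SE 0.11) were both higher in ILC2s.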
